A study of Rattus norvegicus with 24 samples.

Results

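The transcriptome of uninjured thoracic propriospinal (TPS) neurons was described from 12 of the 24 arrays of the series, those labelled 4d ctrl, 2wk ctrl and 1m ctrl (n = 4 arrays each). Each array held RNA of 1 female Long Evans rat (age in the labels 77 ± 10 days). Every rat, control or transected, had received the fluorescent tracer Fluorogold in the upper lumbosacral enlargement, and the control rats had no transection. Labelled cells of the intermediate gray matter of the mid thoracic cord were cut out by laser microdissection, and their RNA was amplified before hybridisation. The control groups differ in the survival time of the rats after labelling, and the time of processing is not given in the sources used here, so these cannot be told apart. The times in the group labels are not the survival times after labelling that the authors list for uninjured rats, which are longer. What the label times count from is not stated. The members of the description were all probes that carry exactly 1 gene symbol, 15097 of the 27342 on the array. They stood for 14324 genes, of which 499 had more than 1 probe. Another 323 probes carried several symbols and 11922 were unnamed here.

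Propriospinal neurons are spinal interneurons whose axons stay within the cord and link its segments. The thoracic cells labelled here send axons to the lumbar enlargement, where they help to coordinate the limbs and trunk. Like other ventral and intermediate interneurons they include excitatory cells, which load glutamate into vesicles, and inhibitory cells, which load GABA, glycine or both. A microdissected soma also carries glial processes, myelin, capillaries and synaptic endings that touch it, so transcripts of those cells can be captured with it. In such pooled cells, fewer cells of a type and less RNA per cell cannot be told apart.

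Each probe was given its mean log2 intensity in the 3 groups, the mean of these (its baseline), and its percentile rank among the 15097 probes, with 100 the highest. The baseline ran between 4.09 and 12.83 with a median of 6.67. Percentile 15 lay at 5.31, percentile 90 at 9.51 and percentile 99 at 11.75. A rank here is an order of probe intensities, which also carry the affinity of each probe, and is not an order of transcript amounts. A gene with several probes was ranked by its brightest. Listed genes without a ranked probe were left out, so the counts of each family are of its ranked genes. The values hold no separate background, so the probes of olfactory receptors, genes of the nasal epithelium, served as a measured reference for the low end. Their 1121 probes had a median of 5.20 and a 95th percentile of 6.20 on the log2 scale, and a level of 6.20 fell at percentile rank 38.7 of all ranked probes. Of all 14324 genes, 8.51% lay in the top 10% of probes, 15.3% in the lowest 15% and 60.6% above the olfactory 95th percentile.

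The 12 array medians lay between 73.6 and 81.3 intensity units, and 0.358% of the control values sat at the lowest deposited intensity, 17. The array 4d ctrl 3 stood somewhat apart. Its Spearman rho with the other 11 arrays across ranked probes was 0.966 to 0.981, and limma's array weights gave it the lowest weight of the 24 arrays, 0.328, with 4d ctrl 4 next at 0.477. Its values are therefore named beside the results that rest on the 4d ctrl group.

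The top of the ranking was held by genes of protein synthesis, respiration and iron and protein handling, with a pair of neuronal genes among them. The 25 highest probes belonged to 19 genes. Rps28, a protein of the small ribosomal subunit, had the brightest probe, with 12.76, 12.84 and 12.96 as its lowest, median and highest log2 intensity over the 12 arrays, and it was brightest on each of them. Cox6c, a subunit of cytochrome c oxidase, had 12.62, 12.71 and 12.73. Ndufa1, a subunit of complex I, had 12.60, 12.69 and 12.73. For these 3 genes the arrays lay close together. Fth1, the ferritin heavy chain that stores iron, had 12.64, 12.69 and 12.76. Snurf, encoded with the splicing protein Snrpn on an imprinted transcript of neurons, had 12.37, 12.53 and 12.60. Hspa8, the constitutive heat shock cognate, had 8 probes, and all 8 were among the 100 highest. The others of the 19 were Rps20, Rpl13a, Rps29 and Rpl37l1 of the ribosome, Cox4i1, Cox6a1, Cox7c and Ndufa4 of the respiratory chain, Tecr, an enzyme of fatty acid elongation, Pfdn2, a subunit of prefoldin, Mt3, the metallothionein of the brain, and the neuronal Snap25 and Thy1. Snap25, a SNARE protein of the presynaptic membrane, had 12.10, 12.30 and 12.41. Thy1, a surface glycoprotein of projection neurons, had 11.95, 12.28 and 12.37. Both were above the highest olfactory receptor probe (baseline 7.51) on every array. The 100 highest probes stood for 57 genes, since Rps20 and Hspa8 each filled 8 of the places and Rpl21 6. Of the 100 highest of all 27342 probes, 31 did not carry 1 symbol and are not ranked here.

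The bases just before the annotated start differ in CG content along the ranking, so the stretches of 8 genes are shown, 4 from the top and 4 from near the floor. They are the 250 bases before the start in RefSeq (build GRCr8), with each CG in capitals. A match in the table was found for 11385 of the 14324 genes. Rps28 (chr7:15311334-15311583, minus strand), Hspa8 (chr8:50080264-50080513, plus strand), Slc32a1 (chr3:167686995-167687244, plus strand), which loads GABA and glycine into vesicles, and Snurf (chr1:120339154-120339403, minus strand) ranked at percentiles 100, 99.96, 96.4 and 99.97. Or4a73 (chr3:96101775-96102024, minus strand), an olfactory receptor, Gabra6 (chr10:27327235-27327484, minus strand), the GABA-A subunit of cerebellar granule cells, Fabp2 (chr2:213724379-213724628, plus strand), the fatty acid binding protein of the gut, and Hoxd13 (chr3:79977827-79978076, plus strand), a Hox gene of the most caudal body, ranked at percentiles 0.00662, 7.23, 0.729 and 3.02.
Rps28: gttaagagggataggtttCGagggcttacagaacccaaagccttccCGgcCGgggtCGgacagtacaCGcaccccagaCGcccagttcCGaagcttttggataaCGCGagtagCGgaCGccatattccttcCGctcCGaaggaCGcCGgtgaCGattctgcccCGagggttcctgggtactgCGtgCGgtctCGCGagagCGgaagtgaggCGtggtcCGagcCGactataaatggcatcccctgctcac
Hspa8: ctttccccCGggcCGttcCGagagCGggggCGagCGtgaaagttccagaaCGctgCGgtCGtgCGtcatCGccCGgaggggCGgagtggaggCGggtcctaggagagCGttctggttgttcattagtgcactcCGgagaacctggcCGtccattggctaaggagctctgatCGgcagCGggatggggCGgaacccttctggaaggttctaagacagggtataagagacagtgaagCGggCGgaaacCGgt
Slc32a1: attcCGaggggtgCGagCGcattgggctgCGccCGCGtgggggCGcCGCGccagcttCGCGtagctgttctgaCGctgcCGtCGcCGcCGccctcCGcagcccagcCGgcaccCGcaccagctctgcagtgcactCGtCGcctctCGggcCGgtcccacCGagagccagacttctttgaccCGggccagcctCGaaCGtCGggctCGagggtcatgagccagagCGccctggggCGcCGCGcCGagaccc
Snurf: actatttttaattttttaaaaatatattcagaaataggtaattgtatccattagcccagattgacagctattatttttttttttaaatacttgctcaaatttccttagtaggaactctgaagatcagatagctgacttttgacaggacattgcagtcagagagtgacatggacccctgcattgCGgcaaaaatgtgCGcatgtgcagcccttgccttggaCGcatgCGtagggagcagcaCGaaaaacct
Or4a73: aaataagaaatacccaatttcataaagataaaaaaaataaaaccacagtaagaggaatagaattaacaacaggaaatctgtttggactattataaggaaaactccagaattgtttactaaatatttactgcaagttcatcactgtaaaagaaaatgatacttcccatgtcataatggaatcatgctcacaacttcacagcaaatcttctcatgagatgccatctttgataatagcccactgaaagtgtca
Gabra6: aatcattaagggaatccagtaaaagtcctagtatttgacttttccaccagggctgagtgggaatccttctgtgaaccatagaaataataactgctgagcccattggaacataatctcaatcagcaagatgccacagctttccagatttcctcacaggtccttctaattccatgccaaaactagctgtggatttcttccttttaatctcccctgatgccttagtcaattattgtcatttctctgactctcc
Fabp2: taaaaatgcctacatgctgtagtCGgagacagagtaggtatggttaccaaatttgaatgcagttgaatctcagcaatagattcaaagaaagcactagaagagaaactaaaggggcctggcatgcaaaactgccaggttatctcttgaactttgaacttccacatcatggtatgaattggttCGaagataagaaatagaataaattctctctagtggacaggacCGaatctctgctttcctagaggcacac
Hoxd13: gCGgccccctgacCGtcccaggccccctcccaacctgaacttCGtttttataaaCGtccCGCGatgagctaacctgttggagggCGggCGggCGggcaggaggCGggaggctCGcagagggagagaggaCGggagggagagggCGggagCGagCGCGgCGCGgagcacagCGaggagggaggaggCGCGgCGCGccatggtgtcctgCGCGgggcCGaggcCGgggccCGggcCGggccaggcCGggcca
Rps28 held 25 CG, Hspa8 23 and Slc32a1 34 in these windows, against 5 in Snurf, a high-ranked exception. Or4a73 and Gabra6 held 0 CG and Fabp2 3, against 30 in Hoxd13, an exception near the floor. Across all promoters matched, the median was 2 CG in the lowest 15% of the ranking (1764 promoters), 8.5 between percentiles 15 and 50 (4018), 17 between 50 and 90 (4604), 18 between 90 and 99 (933) and 17.5 in the top 1% (66). The motif is the 2 letters CG, which read the same on both strands, and overlaps no other motif since only this one was counted. Of all 11385 promoters 57.7% held at least 10. Leaving out the olfactory, vomeronasal and taste receptors, whose promoters are poor in CG, the median of the lowest 15% was 4 and that of all genes 14. These counts describe the windows, and the microarray probes themselves lie elsewhere in each gene.

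**Figure D1:**
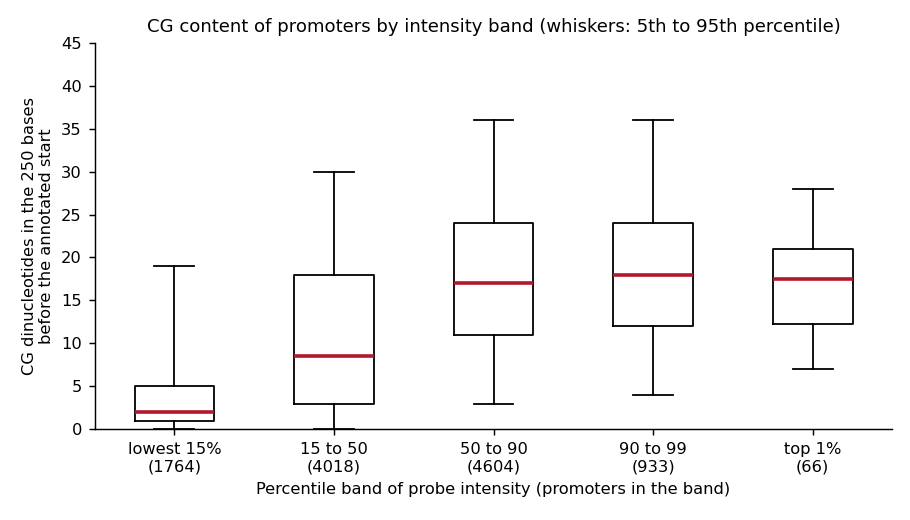
Number of CG dinucleotides in the 250 bases before the annotated start (y axis) for genes in 5 bands of probe intensity rank (x axis, with the number of promoters). The red line is the median, the box holds the middle quartiles and the whiskers reach the 5th and 95th percentiles. The median is 2 in the lowest 15%, 8.5 in the next band and between 17 and 18 in the 3 bands above percentile 50.

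Families of protein synthesis, respiration, protein folding and glycolysis had median percentiles between 94.9 and 98.2. Of 69 cytosolic ribosomal protein genes, 67 lay in the top 10% and 22 in the top 1%, with a median percentile of 98.2. The lowest members were Rpl7a at percentile 92.1, Rpl15 at 76.2 and Rps27 at 69.1. Of 74 nuclear-encoded subunits of the respiratory chain, 63 were in the top 10% and their median was 96.7. The lowest of these were Cox8b at 49.8, Cox6b2 at 45.6 and Cox8c at 32.5, isoforms known best from muscle and testis. Chaperones had a median of 95.9 (12 of 17 in the top 10%), led by Hspa8, Hsp90ab1 at 99.4 and Hsp90aa1 at 99.04. Glycolytic enzymes had a median of 94.9 (12 of 20), with Ldhb at 99.3, Aldoc at 99.03, Gapdh at 98.9 and Ldha at 98.8. The isoforms of other tissues ranked low, with the liver kinase Pklr at 26.5 and the testis dehydrogenase Ldhc at 16.6. Genes of mitosis and DNA replication had a median of 26.4, and 4 of 19 lay in the lowest 15%, among them Bub1b at 6.90 and Kif20a at 6.35. Pcna, the sliding clamp that also serves DNA repair, was an exception at 92.6. The replication enzyme Rrm2 spread widely, with 6.46, 6.96 and 10.01 as its lowest, median and highest log2 intensity. The list as a whole was raised on 1 array. Its mean log2 intensity, relative to each gene's own mean, was 0.775 on 4d ctrl 1 and between -0.208 and 0.0573 on every other array.

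The labelled cell type was checked against its markers. All 20 neuron markers lay above the olfactory 95th percentile, 15 of them in the top 10% and 5 in the top 1%, with a median percentile of 96.1. After Snap25 and Thy1 the highest were Nefm, the medium neurofilament, at 99.7 and Uchl1, a ubiquitin hydrolase of neurons, at 99.5. The lowest were the RNA-binding proteins Elavl4 at 79.2, Celf4 at 69.5 and Elavl3 at 66.6. Motor neuron markers ranked lower, with a median of 46.6 and 0 of 8 in the top 10%. The motor neuron transcription factors Isl1 and Isl2 lay at 19.1 and 6.97. Slc5a7, the choline transporter, was the highest at 70.1, and it varied between arrays: it had 6.61, 7.70 and 8.51 as its lowest, median and highest log2 intensity. Slc18a3, which loads acetylcholine into vesicles, had 5.65, 6.64 and 7.30. Both were lowest on 4d ctrl 2, while the highest arrays differed, 1m ctrl 3 for Slc5a7 and 2wk ctrl 1 for Slc18a3.

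Glial transcripts ranked nearly as high as the neuronal ones. Astrocyte markers had a median percentile of 93.0 (9 of 14 in the top 10%) and markers of oligodendrocytes and myelin had 94.8 (10 of 15). All 14 and all 15 lay above the olfactory 95th percentile. Mbp, the myelin basic protein, had 10.89, 11.29 and 11.48 as its lowest, median and highest log2 intensity, and Mobp, another myelin protein, lay at percentile 97.4. The lowest member of the myelin list, the fatty acid hydroxylase Fa2h, still ranked at 77.4. Among astrocyte genes, Aldoc ranked at 99.03, Ndrg2 and S100b at 97.7 each and the glutamate transporter Slc1a2 at 97.3. Gfap, the astrocyte filament, averaged at percentile 91.2 but ran between 8.59 and 11.27 over the arrays. The lowest astrocyte gene was Fgfr3 at 50.5. Oligodendrocyte precursor markers were lower, with a median of 55.9, and ranged between Cspg4 at 40.3 and Ptprz1, which astrocytes also make, at 90.5. Microglia and macrophage markers had a median of 66.1 and 15 of 19 above the olfactory level. Ctss, a lysosomal protease, was the highest at 95.7, while Ptprc, Fcgr2b and Itgam lay at 33.6, 33.3 and 24.4. Endothelial markers had a median of 81.2, led by the tight junction gene Cldn5 at 92.1 and the glucose transporter Slc2a1 at 88.6. Pericyte and smooth muscle markers had a median of 50.6, with Rgs5 at 94.8 and Des at 29.7. Meningeal and perivascular fibroblast markers had a median of 47.4, with Ptgds, which oligodendrocytes also make, at 96.8 and Lum at 27.1. Ependymal markers had a median of 51.8 and Schwann cell markers 25.8, each led by a gene with other sources, Vim at 82.6 and Pmp22 at 84.2. The beta globin genes Hbb and Hbb-b1 of red cells ranked at 98.5 and 97.6, while Ahsp, a chaperone of their alpha globin, ranked at 12.61. Markers of lymphocytes and neutrophils had a median of 28.5 and 2 of 14 above the olfactory level. How much of any glial or vascular value came from other cells was not tested.

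**Figure D2:**
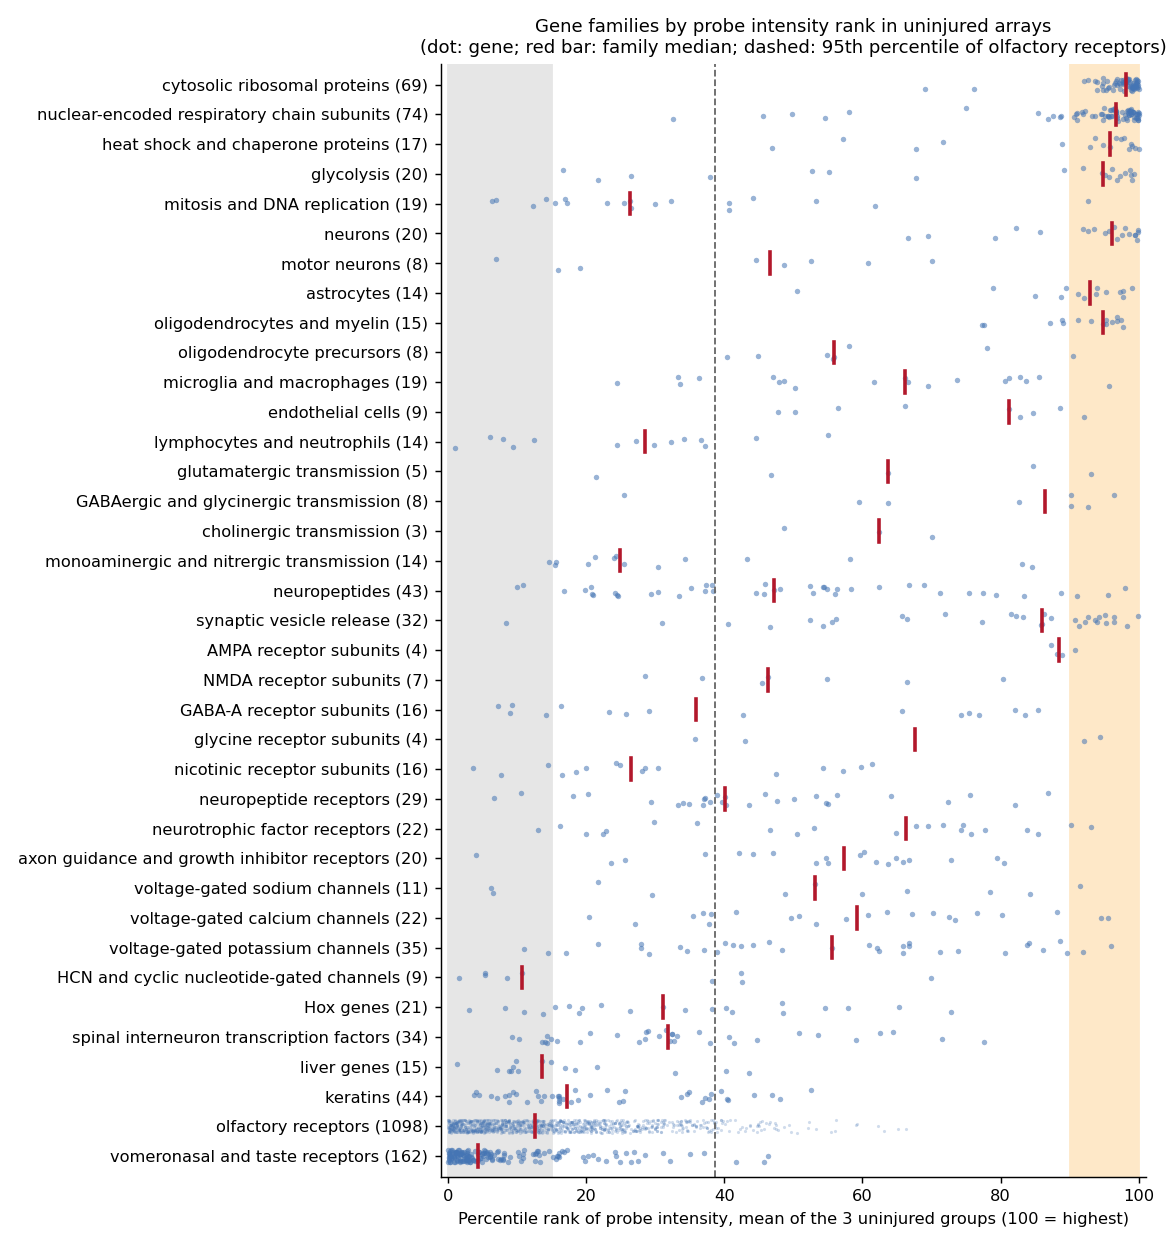
Percentile rank of probe intensity in the uninjured arrays (x axis, 100 = highest) for the genes of 37 families (y axis, number of genes in parentheses). Each dot is a gene by its brightest probe, the red bar is the family median, the dashed line is the 95th percentile of olfactory receptors, and the shaded bands are the lowest 15% and the top 10%. Ribosomal, respiratory, neuronal, astrocyte and myelin families sit at the right, with medians of 93.0 or higher, and chemosensory receptors at the left.

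The list of GABA and glycine genes had a median percentile of 86.4, against 63.7 for glutamate and 62.4 for acetylcholine genes. These lists are short, and the first also holds a glial transporter and a degrading enzyme. Their medians therefore do not measure inhibitory against excitatory cells. Slc32a1 ranked at percentile 96.4. Its log2 intensities were 10.69, 10.58, 10.66 and 10.82 in 4d ctrl, 10.95, 10.82, 10.78 and 10.82 in 2wk ctrl, and 10.68, 10.89, 10.96 and 10.96 in 1m ctrl. The 3 groups overlapped. Slc6a5, the glycine transporter of glycinergic terminals, ranked at 90.2. It had 9.57, 9.39, 9.39 and 9.59 in 4d ctrl, 9.53, 9.20, 9.10 and 9.30 in 2wk ctrl, and 9.65, 9.88, 10.04 and 9.88 in 1m ctrl. Every 1m ctrl array was above every array of the other groups. The glial glycine transporter Slc6a9 ranked at 90.2 and Abat, which breaks down GABA, at 92.6. Of the GABA synthesising enzymes, Gad2 ranked at 82.6 and Gad1 at 59.5. Both lay below the glutamate transporter Slc17a6, given next. Of the glycine forming enzymes, Shmt2 ranked at 63.6 and Shmt1 at 25.5.

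The vesicular glutamate transporters lay in the order Slc17a6, Slc17a7 and Slc17a8. Slc17a6, the form of most spinal excitatory neurons, ranked at 84.7 and had 8.97, 8.70, 8.51 and 8.93 in 4d ctrl, 8.67, 9.04, 8.60 and 8.82 in 2wk ctrl, and 9.10, 9.14, 9.05 and 9.19 in 1m ctrl. The 4 values of 1m ctrl were the highest, though its lowest array (9.05) was barely above 2wk ctrl 2 (9.04). Slc17a7 ranked at 46.7, with 6.20, 6.53 and 6.91 as its lowest, median and highest log2 intensity. Slc17a8 ranked at 21.4, with 5.27, 5.56 and 5.70, below the olfactory 95th percentile of 6.20 on every array. Slc38a1, a glutamine transporter, ranked at 93.0 and the glutaminase Gls2 at 63.7. Monoamine genes ranked low, with a median of 24.9 and 4 of 14 above the olfactory level. The monoamine oxidases Maoa and Maob were the highest at 84.5 and 83.1, and Ddc and Nos1 followed at 58.2 and 43.4. The vesicular transporter Slc18a1 lay at 15.6 and the serotonin enzymes Tph1 and Tph2 at 15.4 and 14.6. Among 43 neuropeptide genes the median was 47.1, with 3 in the top 10% and 2 in the lowest 15%. The granins Scg2 at 98.0 and Chgb at 95.6 led, followed by Cartpt at 91.1 and somatostatin (Sst) at 88.7, and Rln3 at 10.8 and Grp at 10.0 closed the list. Cartpt spread between 8.51 and 10.46 over the arrays, and Sst between 9.02 and 9.80.

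**Figure D3:**
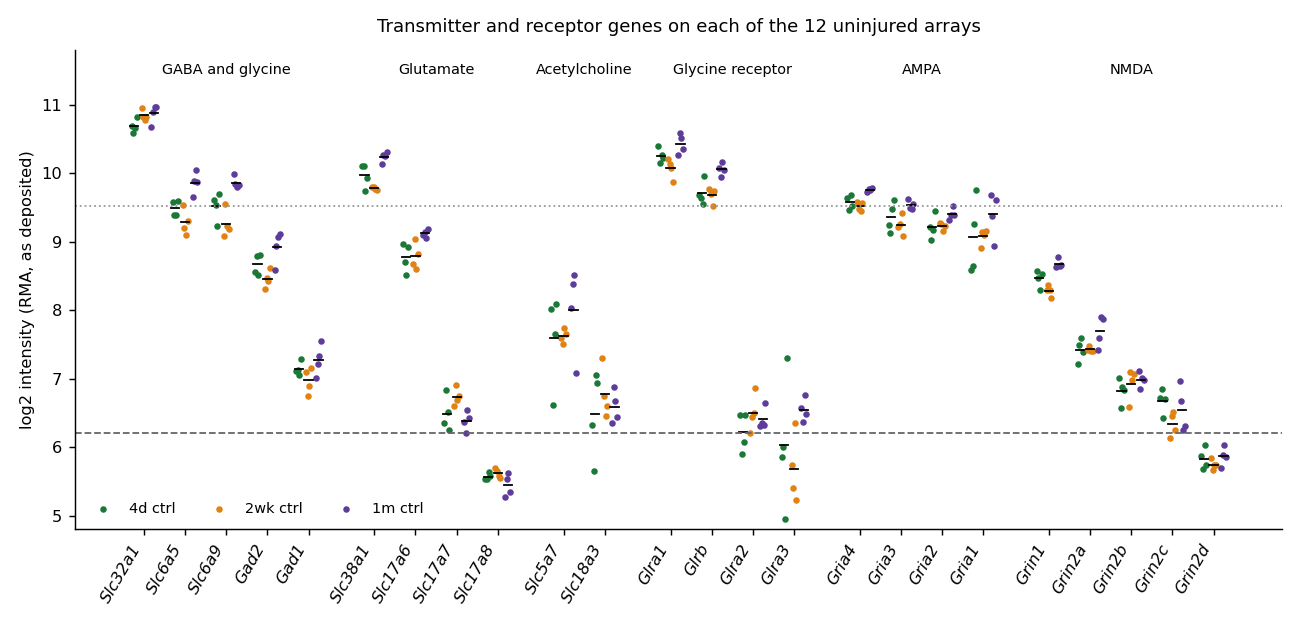
Log2 intensity (y axis) of 24 transmitter and receptor genes on each of the 12 uninjured arrays, coloured by group in the order 4d ctrl, 2wk ctrl and 1m ctrl. The black bars are group means of 4 arrays, the dashed line is the 95th percentile of olfactory receptors (6.20) and the dotted line is percentile 90 of all ranked probes (9.51). Slc32a1, Slc17a6, Glra1, Glrb and the 4 AMPA subunits lie well above the dashed line, and Slc17a8 and Grin2d below it.

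Among receptors for fast transmission, AMPA and glycine receptor subunits led. The 4 AMPA subunits ranked close together, Gria4 at 90.7, Gria3 at 88.9, Gria2, the subunit that limits calcium entry, at 88.1 and Gria1 at 87.3. Gria1 varied most of them, with 8.59, 8.64, 9.26 and 9.75 in 4d ctrl, 8.91, 9.14, 9.10 and 9.16 in 2wk ctrl, and 9.68, 9.38, 8.94 and 9.61 in 1m ctrl, so the groups overlapped. NMDA subunits had a median of 46.3. Their obligatory subunit Grin1 ranked at 80.4, then Grin2a at 66.4, Grin2b at 54.9, Grin2c at 46.3, Grin3a at 45.4, Grin3b at 36.7 and Grin2d at 28.5. Kainate and delta subunits had a median of 48.9, with Grik2 at 61.9 and Grik3 at 26.4, and metabotropic glutamate receptors 54.0, with Grm3 at 76.8 and Grm6, the receptor of retinal bipolar cells, at 21.2. Glra1, the adult glycine receptor alpha subunit, ranked at 94.3 and its partner Glrb at 92.1. Glra2, the alpha subunit of the immature cord, lay at 43.0. Glra3 lay at 35.8 and was unstable: its lowest, median and highest log2 intensities were 4.96, 6.18 and 7.30. GABA-A subunits had a median of 35.9, with 8 of 16 above the olfactory level and 4 in the lowest 15%. Gabrg1 at 85.4, Gabra3 at 83.5, Gabrb2 at 82.1 and Gabra5 at 76.9 led, and Gabrp at 9.29, the retinal Gabrr2 at 8.99 and Gabra6 at 7.23 lay near the floor. The GABA-B subunits Gabbr1 and Gabbr2 ranked at 85.0 and 77.9.

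Receptors for acetylcholine, amines and peptides were mostly in the lower part of the ranking. Nicotinic subunits had a median of 26.5, with 5 of 16 above the olfactory level, and the 4 highest were the neuronal Chrna4 at 61.3, Chrnb2 at 59.8, Chrna7 at 57.2 and Chrna3 at 54.3. Chrnb3 was near the floor at 3.70. Of the muscarinic receptors, Chrm2 stood at 84.0 and the other 4 between 18.5 and 50.2. Of 14 serotonin receptors, Htr2c stood at 84.4, Htr1b at 67.0 and Htr2b last at 16.1. Adrenergic receptors had a median of 42.6, led by Adra2c at 52.0, dopamine receptors 28.0, led by Drd2 at 57.8, and opioid receptors 53.2, between Oprd1 at 40.4 and Oprl1 at 56.2. Among 29 neuropeptide receptor genes the PACAP receptor Adcyap1r1 at 86.9, the calcitonin receptor partner Ramp1 at 82.1 and the substance P receptor Tacr1 at 75.5 ranked highest, and Vipr2 lowest at 6.64. Among purinergic and adenosine receptors Adora1 led at 77.5. Receptors for trophic factors and cytokines had a median of 66.3, led by Il6st, the shared chain of the interleukin 6 family, at 93.1, the insulin receptor Insr at 90.2, Lifr at 85.3 and Ntrk2, the BDNF receptor, at 83.8. Receptors of axon guidance had a median of 57.4, with Epha5 at 80.5, Robo1 at 79.4 and Robo3, known from commissural axons before they cross, at 4.01.

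Most ion channel families had medians in the middle of the ranking, 53.1 for voltage-gated sodium, 55.6 for voltage-gated potassium and 49.3 for other potassium channels, with single subunits near the top and near the floor. Kcna1 and Kcna2, the potassium channels beside the node of Ranvier, ranked at 96.0 and 91.9, and Kcnd2 at 89.5. Scn1a, a sodium channel of inhibitory neurons and their initial segments, ranked at 91.5, Scn4b, a beta subunit, at 84.2 and Scn8a, the sodium channel of nodes, at 78.5. The sensory neuron channels Scn10a and Scn11a lay at 6.49 and 6.25, and their highest log2 intensities on any array were 5.08 and 5.04, below the olfactory median of 5.20. Calcium channel genes had a median of 59.2, led by the auxiliary subunits Cacng7 at 95.5 and Cacng2, which also carries AMPA receptors to the synapse, at 94.5. Of the other potassium channels, the glial inward rectifiers Kcnj10 at 92.1 and Kcnj16 at 86.4 and the leak channel Kcnk9 at 90.2 led. HCN and cyclic nucleotide-gated channels had a median of 10.7, with 5 of 9 in the lowest 15%. Within them Hcn2 stood at 69.9, Hcn4 at 42.6 and Hcn3 at 38.3, while the photoreceptor and olfactory channels Cngb3, Cnga2 and Cnga1 lay at 5.34, 5.33 and 1.596. Of the TRP and acid-sensing channels, Trpm3 led at 82.1, Asic2 followed at 77.4, and the nociceptor channels Trpv1 and Trpa1 lay at 12.2 and 7.76. Genes of chloride and cation-chloride transport had a median of 66.2, with 1 of 11 in the top 10%, the chloride importer Slc12a2 at 94.4. The sodium pump subunits Atp1b1 and Atp1b2 ranked at 98.0 and 96.8.

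Proteins of the synapse and cytoskeleton ranked high as groups. Of 32 genes of vesicle release, 13 were in the top 10%, with a median of 85.9, and Vamp1, the synaptobrevin of fast-firing spinal neurons, ranked at 98.2. Cplx3, a complexin of the retina, lay at 8.37. The neurofilament genes Nefm, Nefl, Nefh and Ina ranked at 99.7, 98.6, 95.2 and 93.5, against 29.7 for the muscle filament Des and 20.7 for the progenitor filament Nes. Of 22 tubulin and microtubule genes, 10 were in the top 10%, among them Stmn1 at 98.4, Tuba1b at 98.3 and Map1b at 98.0. Of the calcium-binding proteins, Calm2 ranked at 99.8, Vsnl1 at 99.5 and Pvalb, parvalbumin, at 97.8.

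Patterning genes lay mostly low. Of 39 Hox genes listed, 21 were ranked, with a median of 31.2 and 8 of them above the olfactory level. The highest were Hoxa7 at 72.8 and Hoxc9 at 65.2, genes of the thoracic segments. The caudal Hoxc12 and Hoxd13 lay at 11.04 and 3.02. The 34 transcription factors of spinal interneurons had a median of 31.9. Nfib, at 77.5, Nr4a2 at 71.4, Meis2 at 64.4 and Meis1 at 62.6 led, and Dbx1, Lhx5 and Sim1, which mark progenitors or newborn interneurons, lay at 13.7, 10.3 and 9.30. Genes of other tissues had low medians. The median percentile was 12.57 for 1098 olfactory receptor genes, 4.32 for 162 vomeronasal and taste receptors, 13.6 for liver genes, 15.4 for genes of retina and lens, 17.2 for keratins, 20.2 for pancreas and gut, 23.97 for muscle and 29.4 for testis. In the lowest 15% were 626 of the olfactory receptor genes and 132 of the vomeronasal and taste receptors. Some genes of these lists stood above the rest: the olfactory receptor Or4f60 at 66.3, the pancreatic lipase Pnlip at 68.8 and the muscle troponin Tnnc2 at 95.2. Tnnc2 had 9.37, 10.54 and 10.84 as its lowest, median and highest log2 intensity, so its probe was bright on every array.

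On the percentile scale, the ranks were stable over the 3 control groups at both ends of the range and less so in the middle. Across the 15097 probes, Spearman rho between group means was 0.992 for 2wk ctrl and 4d ctrl, 0.993 for 1m ctrl and 4d ctrl and 0.991 for 1m ctrl and 2wk ctrl. Of the 100 highest probes, 84 were shared by the 3 groups and 64 by all 12 arrays. The top 1% of 151 probes held 132 that were in the top 1% of each group, the top 10% of 1510 probes held 1381, and the lowest 15% of 2264 probes held 1979. The median range of the percentile rank over the 3 groups was 2.92 points, its 95th percentile 9.55 and its largest value 52.1. By band, the median range was 1.74 in the lowest 15%, 4.15 between 15 and 50, 3.13 between 50 and 90, 0.755 between 90 and 99 and 0.119 in the top 1%. The percentile scale is bounded, so ranks near its ends have less room to move. On the log2 scale the median range over the groups was 0.134, 0.192, 0.253, 0.187 and 0.0872 in the same order of bands. By that measure the band between 90 and 99 was close to that between 15 and 50. The spread of log2 values between arrays of a group was smallest in the top 1%, with a median SD of 0.0626 against 0.184 between 50 and 90. A range over 10 points was found for 647 probes, 4.29% of the total. Within the top 10%, Rps28, Cox6c, Snurf, Hspa8 and Cox4i1 had the smallest ranges, 0.00662 points or less. Among genes taken by their brightest probe, Mt1, Gfap, Snrpd1, Pdpn and Rpph1 had the widest. Mt1 ranked at 97.1 in 4d ctrl, 89.3 in 2wk ctrl and 87.8 in 1m ctrl, and Gfap at 95.2, 87.7 and 88.8 in the same order of groups. Array 4d ctrl 3 was the lowest of its group for both, at a log2 intensity of 9.64 for Mt1 and 8.93 for Gfap. Gfap did not pass the F test between the 3 groups (limma, adjusted p = 0.0666, 0.00127 without 4d ctrl 3, and under 0.05 in 4 of 19 alternatives). Set beside the 12 transected arrays, whose group means were averaged in the same way, the order of the baseline was similar: rho was 0.996, and 96 of the 100 highest probes and 2163 of the 2264 in the lowest 15% were shared. This rho compares averages over 12 arrays, and those between control groups compare means of 4, so their sizes cannot be compared. The transected average also pools groups between 3 days and 1 month after injury.

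**Figure D4:**
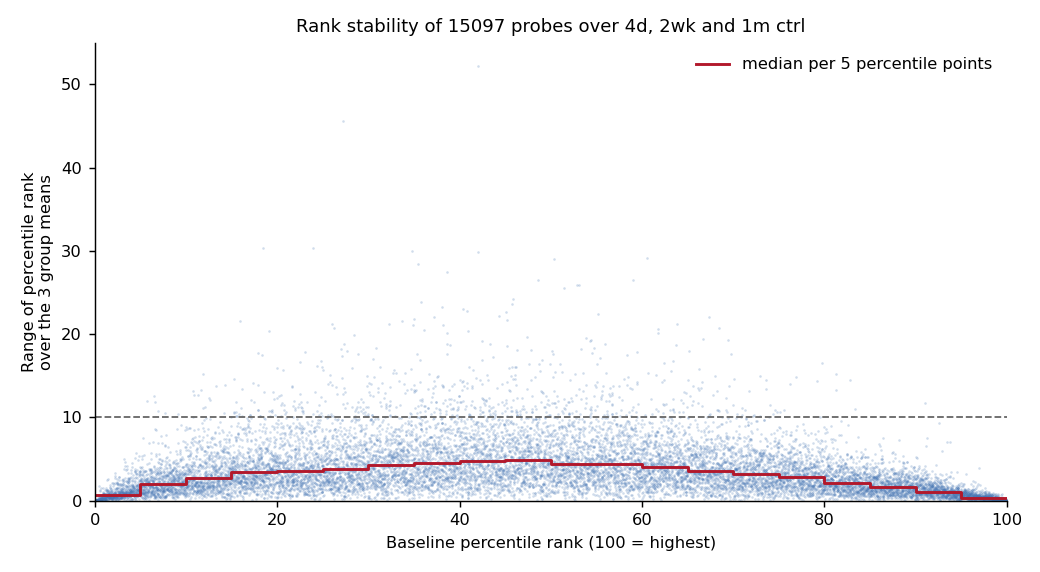
Range of the percentile rank over the 3 uninjured group means (y axis, percentile points) against the baseline percentile rank (x axis, 100 = highest) for 15097 probes, 1 dot each. The red steps are medians per 5 percentile points and the dashed line marks a range of 10 points, which 647 probes exceed. Probes in the top 1% move by a median of 0.119 points and those between percentiles 15 and 50 by 4.15.

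Differences between the 3 control groups were tested with limma's F test in a fit of the 7 group means over all 24 arrays. At an adjusted p under 0.05 it called 1109 of 23240 probes, or 4.77%, and 735 of these carried 1 symbol. The calls depended on the arrays and the fit used, and leaving out 1 array moved their number by over 1.5 times for 9 of the 12. They numbered 68 without 2wk ctrl 3 and 2897 without 4d ctrl 3, and a fit of the 12 control arrays alone called 10. Of the probes called, 61.2% were highest in 1m ctrl and 63.2% lowest in 2wk ctrl. Intensities as a whole were spread wider on 1m ctrl than on 2wk ctrl arrays. The upper quartile of log2 intensity was 7.62 to 7.68 against 7.51 to 7.55, and the lower quartile 5.30 to 5.33 against 5.43 to 5.50. After quantile normalizing all arrays again, 392 probes were called, of which 46.4% were highest in 1m ctrl, 40.1% highest in 2wk ctrl and 49.2% lowest in 2wk ctrl. Of the 100 highest probes, 2 were called, and of the 151 in the top 1%, 2.

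The widest differences between group means past the test were 1.82 log2 units for Mt1, 1.56 for Apobec1 and 1.55 for Mt2A, each with its highest mean in 4d ctrl. Mt1 and Mt2A, metallothioneins, had 2 probes each, and the values are those of the probe with the wider range. Mt1, a zinc-binding stress protein, had 11.59, 11.26, 9.41 and 11.07 on the 4d ctrl arrays, 9.20, 9.13, 9.05 and 9.11 on the 2wk ctrl arrays and 8.84, 9.08, 9.56 and 8.59 on the 1m ctrl arrays (limma F test, adjusted p = 0.0118, and 8.71e-06 to 0.0835 over the alternatives). Mt2A, of the same family, had 11.74, 11.46, 9.59 and 11.19 in 4d ctrl, 9.44, 9.73, 9.32 and 9.29 in 2wk ctrl, and 9.81, 9.79, 10.79 and 9.29 in 1m ctrl (adjusted p = 0.0323 with limma, 0.000904 to 0.136 over the alternatives). In both genes 3 of the 4d ctrl arrays were above every other array, and 4d ctrl 3 lay among the later groups. C1qc, a chain of complement C1q made by microglia, had 9.59, 10.07, 8.40 and 9.56 in 4d ctrl, 8.50, 8.98, 8.51 and 8.18 in 2wk ctrl, and 8.11, 8.27, 8.11 and 8.10 in 1m ctrl (adjusted p = 0.0210 with limma, 0.000369 to 0.0878 over the alternatives). Timp1, an inhibitor of matrix proteases, had 8.64, 8.83, 6.86 and 7.62 in 4d ctrl, 6.55, 6.71, 6.99 and 6.94 in 2wk ctrl, and 6.46, 6.54, 6.48 and 6.76 in 1m ctrl (adjusted p = 0.0392 with limma, 0.00228 to 0.110). For both C1qc and Timp1 the array 4d ctrl 3 was the lowest of its group and lay within the range of the 2wk ctrl arrays. Apobec1, an RNA-editing enzyme, had 7.73, 8.95, 7.46 and 7.94 in 4d ctrl, 7.24, 7.06, 7.13 and 6.91 in 2wk ctrl, and 6.60, 6.19, 6.60 and 6.43 in 1m ctrl (adjusted p = 0.00834 with limma, 0.000824 to 0.0728). Its 3 groups did not overlap, with 4d ctrl highest and 1m ctrl lowest. Hpgds, S100a4 and Fcer1g, genes of macrophages or microglia among other cells, also had their highest mean in 4d ctrl. S100a4 had 9.21, 9.35, 6.97 and 8.42 on the 4d ctrl arrays and Fcer1g 9.56, 9.76, 8.11 and 9.29, and in both 4d ctrl 3 lay within the later groups. Their calls were not stable: the limma adjusted p was under 0.05 in 6 of 18 alternatives for Hpgds, 4 of 19 for S100a4 and 9 of 19 for Fcer1g.

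Ap1s1 and Bloc1s5, of vesicle sorting, were instead lowest in 2wk ctrl and highest in 1m ctrl. Ap1s1 had 9.13, 9.46, 8.29 and 9.08 in 4d ctrl, 7.95, 8.51, 8.13 and 7.51 in 2wk ctrl, and 9.34, 9.09, 9.34 and 9.23 in 1m ctrl (limma F test, adjusted p = 0.0134, and 0.000612 to 0.0763 over the alternatives). Bloc1s5 had 8.01, 8.14, 7.14 and 8.45 in 4d ctrl, 7.59, 7.23, 7.10 and 7.39 in 2wk ctrl, and 8.47, 8.28, 8.50 and 8.82 in 1m ctrl (adjusted p = 0.0323 with limma, 0.00343 to 0.0986). For both genes the 2wk ctrl and 1m ctrl arrays did not overlap. Among transmission genes, Slc6a5 (adjusted p = 0.0309 with limma, 0.00539 to 0.0901), Slc6a9 (0.0215, 0.00138 to 0.0848), Shmt2, Slc38a1 (0.0216, 0.00209 to 0.0850) and Glra1 (0.0464, 0.0145 to 0.187) passed. After quantile normalizing all arrays again, the limma adjusted p was 0.0887 for Slc6a5, 0.187 for Glra1, 0.0379 for Slc6a9 and 0.0410 for Slc38a1. Glra1 had 10.40, 10.15, 10.26 and 10.22 in 4d ctrl, 10.20, 10.14, 10.07 and 9.87 in 2wk ctrl, and 10.27, 10.58, 10.51 and 10.36 in 1m ctrl. Its groups overlapped.

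By family, genes were counted by their brightest probe, and 683 of 12991 ranked genes tested this way were called, or 5.26%. The share also differed with intensity. It was 114 of 5284 probes between percentiles 15 and 50, 456 of 6039 between 50 and 90 and 153 of 1359 between 90 and 99. Lists of bright and of dim genes therefore do not have the same background. In the GABA and glycine list 3 of 8 genes were called and in glycolysis 6 of 20. In the chloride and cation-chloride transport list 5 of 11 were called (Clcn3, Clcn4, Clcn6, Clcn7 and Slc12a5). The mean of each of these lists was lower on every 2wk ctrl array than on every 1m ctrl array. Whether the wider spread of intensities on 1m ctrl arrays accounts for this was not tested. Calls by family were not counted after quantile normalizing all arrays again. In the microglia and macrophage list 5 of 19 were called (Laptm5, C1qb, C1qc, C1qa and Trem2), and 13 of 19 without 4d ctrl 3. The median percentile of that list was 73.2 in 4d ctrl, 60.8 in 2wk ctrl and 58.1 in 1m ctrl, and 78.1 in 4d ctrl without array 3. In the astrocyte list 4 of 14 were called, and 12 of 14 without 4d ctrl 3, where 12.5% of all probes were called. In other lists 1 of 69 ribosomal protein genes, 5 of 74 respiratory chain subunits, 0 of 22 calcium channel genes, 0 of 14 nicotinic subunits tested and 0 of 19 Hox genes tested were called. These shares were near or below the 5.26% of ranked genes. That figure is not the background of each list, since the lists differ in brightness. The nicotinic and Hox lists have low medians and few genes, so 0 calls there show little. In a limma fit of the 12 control arrays alone, 0 genes of these lists were called, where 10 probes were called in all and 5100 had an unadjusted p under 0.05.

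**Figure D5:**
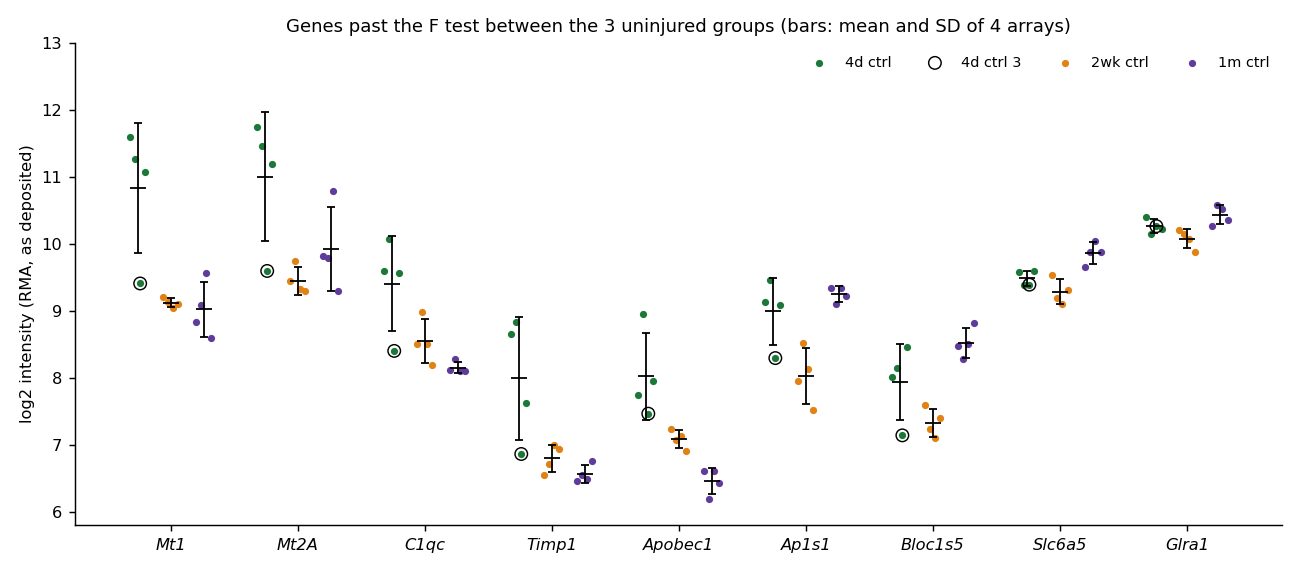
Log2 intensity (y axis) of 9 genes past the F test on each uninjured array, in the order 4d ctrl, 2wk ctrl and 1m ctrl for each gene (x axis). The bars are the mean and SD of 4 arrays, and the open circle marks the array 4d ctrl 3. Mt1, Mt2A, C1qc and Timp1 are high on 4d ctrl arrays other than 4d ctrl 3, which lies near the later groups, and Slc6a5 is highest in 1m ctrl.

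The level of each cell type list was also followed over the 12 arrays, as the mean over its genes of the log2 intensity relative to each gene's own mean. Neuron markers moved little, between -0.12 (4d ctrl 2) and 0.07 (1m ctrl 2). Astrocyte markers lay between -0.39 and 0.38, oligodendrocyte and myelin markers between -0.24 and 0.21 and endothelial markers between -0.28 and 0.23. Microglia and macrophage markers moved most of these, with 0.52, 0.76, -0.39 and 0.56 in 4d ctrl, -0.25, 0.06, -0.06 and -0.21 in 2wk ctrl, and -0.05, -0.30, -0.28 and -0.35 in 1m ctrl. They were high on 3 of the 4d ctrl arrays and lowest on the 4d ctrl 3 array. The mean of neuron markers was set against these 4 lists over the 12 arrays. Pearson's r was 0.315 for astrocytes, 0.431 for oligodendrocytes, -0.441 for microglia and 0.376 for endothelial cells, and Spearman's rho was 0.266, 0.490, -0.427 and 0.531 in the same order. None of the 4 relations passed a two-sided permutation test (adjusted p = 0.308 to 0.317 for r and 0.223 to 0.404 for rho). Without the 2 arrays farthest from the median of the neuron list (4d ctrl 2 and 2wk ctrl 3) r was 0.546, 0.725, -0.121 and 0.810. Those with oligodendrocytes and endothelial cells then passed the permutation test (adjusted p = 0.0496 and 0.0257), so both depend on which arrays are included. On deviations from the group means r was 0.0902, -0.158, -0.242 and 0.0271.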

How the data were processed

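RNA of each rat was hybridised to its own array (Affymetrix Rat Gene 1.0 ST). The authors normalized the scanner data by RMA (background correction, quantile normalization across arrays, 1 summary per probe set) in GeneSpring GX and deposited linear intensity values. Here the intensities of all 24 arrays were read by their labels, 0 per-sample columns were left unused, and log2 was taken. The number of arrays limits the precision. The p-values rest on the spread between arrays of 1 rat each. Differences between rats cannot be separated there from those of dissection, amplification and hybridisation. In the F test this spread was estimated from all 24 arrays, the transected ones included.

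The members and gene lists were chosen with earlier results of these data known. Probes with 1 symbol in the platform annotation were ranked by the mean of the 3 control group means. Named genes were the 25 highest probes, up to 4 highest and 3 lowest genes of each list (all of lists of 8 or fewer), up to 10 genes with the widest group difference past the F test, and 5 genes each with the smallest and the widest rank range in the top 10%. Called genes of a family were also named. The F test of the 3 control groups used limma 3.58.1 in R 4.3.3, with 7 group means, all 24 arrays, probes above the lowest 15% (mean log2 over 5.05) and Benjamini-Hochberg adjustment at 0.05. This replaced the 2-way ANOVA of the methods. List means were related with 100000 permutations (two-sided, 4 relations, scipy 1.17.1). Scripts were tested on simulated data. Promoter sequences came from RefSeq tables of build GRCr8. Alternatives changed the averaging, the probes ranked, the normalization, the filter, the arrays in the fit, the weights and the moderation of the variance, and left out each array in turn.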

Additional observations from a re-analysis of the deposited data

Results flagged for a closer look

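In groups of 4 arrays, an array was singled out where its gap to the nearest other, divided by the range of the group, was above Dixon's critical value for 4 values. Of 102 sets examined (21 genes and 13 cell type lists), 5 were past it, and chance flags about 1 in 20. Lists of other kinds were not examined in this way. C1qc had a ratio of 0.976 in 1m ctrl, where 1m ctrl 2 had a log2 intensity of 8.27 and the others 8.10 to 8.11. S100a8, a neutrophil gene, had a ratio of 0.873 in 2wk ctrl, where 2wk ctrl 4 had 8.27 and the others 4.69 to 5.14. Ahsp, of red cells, had a ratio of 0.902 in 1m ctrl, where 1m ctrl 4 had 7.20 and the others 4.45 to 4.72. The erythrocyte list mean had a ratio of 0.871 in the same group, with 1.12 on 1m ctrl 4 and -0.27 to -0.09 on the others. The list mean of oligodendrocytes and myelin had a ratio of 0.882 in 2wk ctrl, with -0.22 on 2wk ctrl 1 and -0.08 to -0.07 on the others.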

How the results depend on the processing

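The ranking changed little with the averaging, normalization or single arrays. Of 419 named genes, the rank moved by less than 1 SD over arrays for 417 with the median of the 12 arrays, 418 after quantile normalizing the controls again and 419 with log2 of the mean linear intensity. Averages of the same arrays can seldom differ by more than that SD, so these counts say little. The largest shifts were 10.7 points with the median and 15.6 with the mean linear intensity, both for S100a8. After quantile normalizing the controls again the largest was 0.81 points, for Glra3. Ranking all probes of the array moved 349 genes and 58 of 62 list medians by more than their SD over arrays. In that ranking 1 list instead of 4 had a median percentile of 15 or lower. Leaving out 1 array gave 82 to 86 of the 100 highest probes shared, 23 to 25 of the 25 highest, a median percentile range of 2.92 to 3.14, 8 lists with a median over 90 and 4 to 5 with 15 or lower. Of 1127 list genes other than olfactory receptors, 621 were above the olfactory 95th percentile, 509 above the 99th and 619 with the mean of a gene's probes.

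The number of probes called between the control groups, 1109 with limma, was not stable. It was 10 with the 12 control arrays alone, 4403 with array weights and 392 after quantile normalizing all arrays again. Leaving out 1 array gave 68 (2wk ctrl 3) to 2897 (4d ctrl 3), and 9 of 12 arrays moved it by over 1.5 times. Without 4d ctrl 4 it was 2152, without 2wk ctrl 1 or 4 192 and 272, and without 1m ctrl 1 to 4 558, 212, 198 and 178. Of 41 named genes past the test, 0 passed with the 12 control arrays alone and 14 after the second normalization. Same-numbered arrays shared no clear deviation (mean r 0.0472 over 12 pairs, -0.0164 over the other 36). The sources used here do not say whether the numbers pair the rats, and such mean correlations cannot settle it. With the replicate block, fitted on the 12 control arrays alone, limma called 0 probes (5599 at an unadjusted p under 0.05, lowest adjusted p 0.0505), against 10 without the block on the same arrays (5100 unadjusted). The correlation of neuron and oligodendrocyte markers was -0.158 on deviations from the group means and 0.725 without the 2 farthest arrays (adjusted p = 0.0496), and that of neuron and endothelial markers 0.810 without them (adjusted p = 0.0257). The cause of these changes was not tested. Probes near the floor have no separate background here, which limits what low ranks show.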
